A study of Mus musculus with 12 samples.

Results

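The genes described here are 10 genes of colonic goblet cells that encode or help to build mucus. They are *Muc2*, *Fcgbp*, *Clca1*, *Clca3b*, *Zg16*, *Tff3*, *Reg4*, *Spink4*, *Agr2* and *Spdef*, taken by name from a table of 54532 genes, and all 10 were found and passed the filter on low values. They were chosen by name with the FPKM levels of these libraries in the 4 groups already known, so their values are given as a description, with no p-value, and calls from the fit over all genes are only counted beside their share among all genes. The samples were 12 bulk RNA-seq libraries of mouse colonoids, which are organoids grown from colonic epithelial stem cells. There were 3 libraries in each of 4 groups. Control colonoids were Hmox1 fl/fl, with both *Hmox1* alleles flanked by loxP sites and no Cre named in the label. The others are labelled KO and carry Vil1 Cre, a recombinase driven by the villin promoter of intestinal epithelium that deletes the floxed gene, so they differ from control in the Cre as well as in *Hmox1*. One library of the KO hemin group (replicate 3) is labelled Hmox1 fl/fl /Vil1 Cre where the others read Hmox1 KO /Vil1 Cre. Each genotype received vehicle or 200 µM hemin, the oxidised form of heme, for 24 h, and all 4 groups grew in L-WRN conditioned medium. Nothing states how many mice each genotype came from, so that the spread between libraries may be technical and a difference between mice, or between lines, cannot be told apart from genotype.

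Goblet cells are the secretory cells that make the mucus covering the colon. MUC2 is the gel-forming mucin of that layer. It is folded in the endoplasmic reticulum with the help of AGR2, heavily glycosylated in the Golgi, stored in granules and released together with other secreted proteins such as FCGBP, CLCA1, ZG16 and TFF3. SPDEF is a transcription factor of goblet cell maturation, downstream of ATOH1, the factor of secretory fate. In a bulk library, fewer goblet cells and less RNA per goblet cell cannot be told apart. The paper that reported these data states that this hemin exposure caused more cell death in KO than in control colonoids. The part of cell death in the levels below was not tested.

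*Hmox1*, the targeted gene and the enzyme that breaks down heme, had 7.45 ± 0.541 FPKM (fragments per kilobase of gene model, scaled to the depth of the library, mean ± SD, n = 3) in control vehicle and 2.52 ± 0.547 in KO vehicle libraries. With hemin it had 456 ± 64.6 in control and 1314 ± 68.1 in the libraries labelled KO. The level in the libraries labelled KO was lower than in control under vehicle (log2 fold change −1.27 ± 0.12 SE, adjusted p = 1.25e-05 by limma) and higher under hemin (1.53 ± 0.12, adjusted p = 3.29e-06). The hemin value goes against the label. For the loss of *Hmox1* expression in the mice, the paper refers to RT-qPCR of sorted colonic epithelial cells. A gene-level FPKM does not show whether the fragments came from the deleted exons, and the groups are therefore named by their labels. The libraries held between 11648801 and 25101868 fragments, recovered from the FPKM values. A single transcript, *Gm23935*, took 16.8% of the FPKM sum of control vehicle replicate 1, 29.0% of control hemin replicate 1 and 21.0% of KO hemin replicate 2, and between 1.18% and 2.81% elsewhere.

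Most of these genes had their lowest level in hemin-treated colonoids labelled KO. In 8 of the 10 the KO hemin group had the lowest mean of the 4 groups, and in 7 of the 10 the KO vehicle group had the highest. The summed level of the 10 genes was 1906 ± 123 FPKM in control vehicle, 1351 ± 201 in control hemin, 2626 ± 63.3 in KO vehicle and 629 ± 31.5 in KO hemin libraries. The exceptions to the low KO hemin level were *Zg16*, which stayed within a narrow range in all 12 libraries, and *Spink4*, which was lowest in control hemin.

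**Figure D1:**
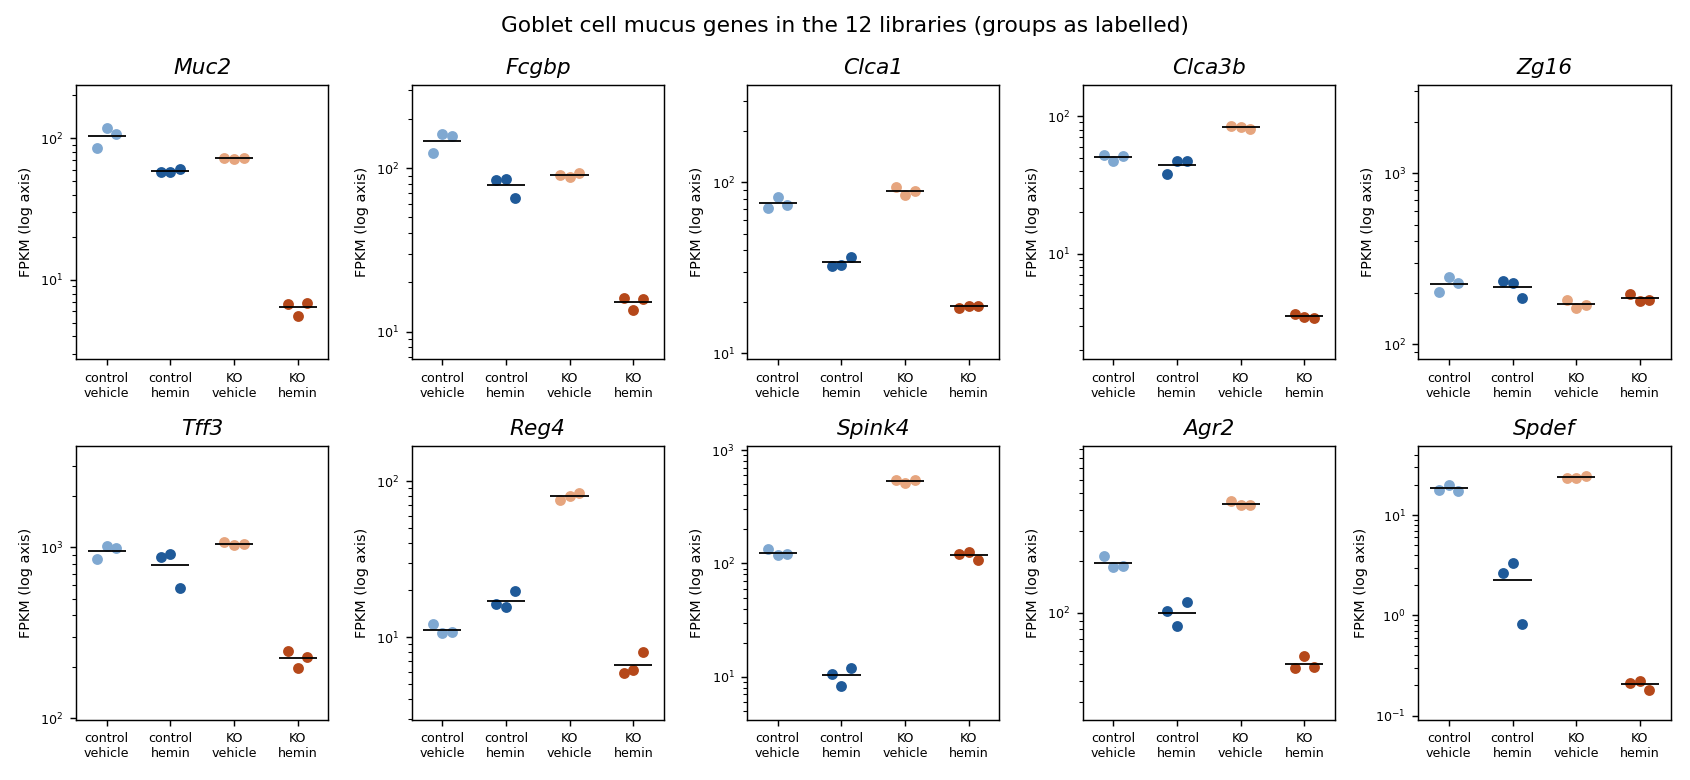
FPKM of each of the 10 genes in the 12 libraries, on log axes that differ between panels. Points are libraries, bars are group means (n = 3). The KO hemin libraries lie below every other library for *Muc2*, *Fcgbp*, *Clca1*, *Clca3b*, *Tff3*, *Reg4*, *Agr2* and *Spdef*, and *Zg16* is spread between 164 and 246 FPKM with neighbouring groups overlapping.

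Promoter sequence was available for 6 of the 10 genes (*Muc2*, *Fcgbp*, *Clca3b*, *Reg4*, *Agr2* and *Spdef*) from RefSeq on GRCm38.p6, as 250 bases before and 50 after each annotated start. The 4 of them with the largest fold between the mean FPKM of vehicle and hemin in colonoids labelled KO are printed 5′ to 3′ on the strand of the gene, since they are the starts of the transcripts that differed most by fold. Capitals mark matches, on either strand, to TATAAA, the TATA box, or to core letters that factors of goblet cells are known to bind. These are CAGCTG (an E-box, of the kind read by ATOH1), GGATG (an ETS core, as SPDEF prefers), TTTATG (CDX) and TGTTTA (forkhead, as FOXA). TGTTTA and TTTATG can share bases, which did not happen in these promoters.
Spdef, chr17:27728902-27729201, minus strand: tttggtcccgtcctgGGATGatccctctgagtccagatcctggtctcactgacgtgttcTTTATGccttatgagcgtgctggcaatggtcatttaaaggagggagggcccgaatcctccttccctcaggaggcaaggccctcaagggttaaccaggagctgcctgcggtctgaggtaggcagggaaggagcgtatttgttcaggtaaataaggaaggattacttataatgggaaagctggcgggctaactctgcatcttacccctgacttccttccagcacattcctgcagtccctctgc
Clca3b, chr3:144849253-144849552, minus strand: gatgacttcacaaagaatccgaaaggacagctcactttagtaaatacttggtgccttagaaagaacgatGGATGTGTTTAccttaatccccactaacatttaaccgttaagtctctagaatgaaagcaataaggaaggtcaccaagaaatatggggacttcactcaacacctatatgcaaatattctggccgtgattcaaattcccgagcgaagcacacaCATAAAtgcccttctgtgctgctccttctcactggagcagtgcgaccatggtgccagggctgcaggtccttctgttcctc
Reg4, chr3:98221906-98222205, plus strand: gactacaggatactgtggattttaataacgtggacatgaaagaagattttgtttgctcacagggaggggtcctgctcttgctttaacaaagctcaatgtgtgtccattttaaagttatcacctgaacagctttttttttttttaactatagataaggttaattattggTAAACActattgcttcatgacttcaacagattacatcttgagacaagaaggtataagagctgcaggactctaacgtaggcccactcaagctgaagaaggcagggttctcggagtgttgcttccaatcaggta
Muc2, chr7:141690090-141690389, plus strand: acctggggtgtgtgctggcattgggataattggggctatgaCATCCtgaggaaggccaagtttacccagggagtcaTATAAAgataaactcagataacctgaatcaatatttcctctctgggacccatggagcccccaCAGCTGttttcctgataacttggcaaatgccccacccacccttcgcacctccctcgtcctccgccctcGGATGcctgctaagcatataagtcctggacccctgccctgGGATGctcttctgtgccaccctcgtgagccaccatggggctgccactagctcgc

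The *Muc2* promoter held GGATG at positions −44 and −4 and, on the opposite strand, at −209, counted from the start at the first base of the match, with CAGCTG at −112 and TATAAA at −174. *Spdef* held GGATG at −235 and TTTATG at −191. *Clca3b* held GGATG at −181 directly followed by TGTTTA at −176, and TTTATG on the opposite strand at −30, whereas *Reg4* held TGTTTA alone, at −82 on the opposite strand. GGATG occurred in 4 of the 6 promoters and in 43.2% of 32851 mouse promoters of the same length, and TTTATG in 3 of 6 and 11.9%. CAGCTG was found in 2 of 6 against 16.3%, TGTTTA in 2 of 6 against 13.4% and TATAAA in 1 of 6 against 13.6%. These matches describe letters in the window and say nothing of binding.

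*Muc2* (ENSMUSG00000025515, chr7:141690340-141754693 on mm10, plus strand) encodes the gel-forming mucin itself. It had 85.6, 119 and 107 FPKM in the control vehicle libraries and 57.3, 57.3 and 60.8 in control hemin. In KO vehicle it had 72.9, 71.8 and 72.7, and in KO hemin 6.75, 5.54 and 6.92. No library of one group reached into another, and the order was control vehicle, KO vehicle, control hemin, KO hemin. The mean was 1.77-fold lower with hemin in control and 11.3-fold lower with hemin in colonoids labelled KO. On the log2(FPKM + 1) scale these differences were −0.80 ± 0.11 and −3.32 ± 0.11 (SE), and the second exceeded the first by −2.51 ± 0.16. In KO hemin, *Muc2* ranked between 6313 and 7038 of the 54532 genes by FPKM, and in control vehicle between 375 and 576.

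*Fcgbp* (ENSMUSG00000047730, chr7:28071236-28120862, plus strand) encodes a large secreted protein that associates with MUC2 in the gel. Its levels were 124, 162 and 158 FPKM in control vehicle, 84.4, 85.9 and 65.3 in control hemin, 90.9, 88.3 and 93.1 in KO vehicle and 16.0, 13.6 and 15.8 in KO hemin. The group order was that of *Muc2*, without overlap. The mean was 1.88-fold lower with hemin in control and 6.002-fold lower in colonoids labelled KO (log2 differences −0.90 and −2.51, both ± 0.12).

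The CLCA proteins are secreted, and CLCA1 is a protease that cleaves MUC2 in the mucus. *Clca1* (ENSMUSG00000028255, chr3:145003817-145032776, minus strand) and *Clca3b* (ENSMUSG00000037033, chr3:144822623-144849357, minus strand) are related neighbours of 1 family, and reads shared between family members could be split between them, which makes their values less certain. *Clca1* had 70.8, 81.8 and 73.3 FPKM in control vehicle, 32.4, 32.7 and 36.7 in control hemin, 93.7, 84.6 and 89.1 in KO vehicle and 18.5, 19.0 and 19.0 in KO hemin. The 4 groups were separate, with KO vehicle highest and KO hemin lowest. *Clca3b* had 52.6, 47.5 and 51.2 FPKM in control vehicle, 38.2, 47.3 and 47.6 in control hemin, 84.4, 82.8 and 81.2 in KO vehicle and 3.66, 3.45 and 3.42 in KO hemin. Here the control vehicle and control hemin libraries overlapped, and the KO hemin libraries lay far below the rest. The hemin difference of *Clca3b* was −0.19 ± 0.08 (log2) in control and −4.22 ± 0.08 in colonoids labelled KO, 23.6-fold in linear terms, while that of *Clca1* was −1.13 ± 0.07 and −2.18 ± 0.07. *Gm16215*, which overlaps *Clca3b*, had at most 11 fragments in any library.

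*Zg16* (ENSMUSG00000049350, chr7:127050156-127087328, minus strand) encodes a small lectin-like protein of the mucus that binds Gram-positive bacteria. It had 201, 246 and 227 FPKM in control vehicle, 235, 227 and 185 in control hemin, 180.3, 164 and 169 in KO vehicle and 198, 178 and 180.5 in KO hemin. Neighbouring groups in the order of means all overlapped, from 225 ± 22.3 in control vehicle to 171 ± 8.51 in KO vehicle. The KO vehicle libraries nevertheless lay below every control library, and under vehicle *Zg16* was lower in KO by log2 −0.39 ± 0.10. The hemin difference was −0.06 ± 0.10 (log2) in control and 0.12 ± 0.10 in colonoids labelled KO, and the sign of either changes with the scaling or with a library left out (−0.22 with TPM in the latter, 0.04 without control hemin replicate 3 in the former). The 2 genes that overlap it on the opposite strand, *Gm44939* and *Gm22747*, had 0 fragments in every library.

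*Zg16* was thus apart from *Muc2* in relative terms. Per library, the FPKM ratio of *Zg16* to *Muc2* was 2.18 ± 0.147 in control vehicle, 3.70 ± 0.572 in control hemin, 2.36 ± 0.103 in KO vehicle and 29.1 ± 3.01 in KO hemin. The ratio of *Fcgbp* to *Muc2* was close in the first 3 groups (1.43 ± 0.0608, 1.35 ± 0.239 and 1.25 ± 0.0258) and was 2.37 ± 0.0856 in KO hemin. The ratio of *Clca1* to *Muc2* was 0.735 ± 0.0797, 0.581 ± 0.0204, 1.23 ± 0.0539 and 2.97 ± 0.399 in the same order. These are ratios per length and do not depend on the depth of a library.

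*Tff3* (ENSMUSG00000024029, chr17:31125306-31129646, minus strand) encodes a trefoil peptide that goblet cells secrete with mucin and that takes part in epithelial repair. It was the most abundant of the 10 genes in every group. It had 858, 1019 and 987 FPKM in control vehicle, 881, 914 and 577 in control hemin, 1068, 1029.9 and 1043 in KO vehicle and 247, 196 and 229.6 in KO hemin. The control vehicle and control hemin libraries overlapped, replicate 3 of control hemin was the low one, and the KO hemin libraries lay below all others. The difference with hemin was −0.30 ± 0.16 (log2) in control and −2.22 ± 0.16, or 4.67-fold lower, in colonoids labelled KO.

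*Reg4* (ENSMUSG00000027876, chr3:98222156-98236748, plus strand) encodes a secreted C-type lectin of the Reg family, made by colonic secretory cells. Control vehicle libraries had 12.2, 10.6 and 10.8 FPKM and control hemin libraries 16.2, 15.6 and 19.6. KO vehicle libraries had 76.0, 80.5 and 84.2, and KO hemin libraries 5.92, 6.12 and 7.99. All 4 groups were separate, and every hemin library lay above every vehicle library in control and below every vehicle library in colonoids labelled KO. The hemin difference was 0.57 ± 0.11 (log2) in control and −3.41 ± 0.11 in colonoids labelled KO. Under vehicle *Reg4* was 7.16-fold higher in KO than in control, the largest such ratio among the 10 genes.

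*Spink4* (ENSMUSG00000028415, chr4:40920052-40931395, plus strand) encodes a secreted Kazal-type protease inhibitor of goblet cells. It had 133, 118 and 121 FPKM in control vehicle, 10.7, 8.33 and 12.02 in control hemin, 547, 511 and 548 in KO vehicle and 121, 126 and 107 in KO hemin. The control vehicle and KO hemin libraries overlapped, and the control hemin libraries were far below both. The mean was 12.01-fold lower with hemin in control and 4.54-fold lower in colonoids labelled KO (log2 differences −3.48 and −2.18, both ± 0.11). *Spink4* was the 1 gene of the 10 that was higher in KO hemin than in control hemin, by 11.4-fold.

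*Agr2* (ENSMUSG00000020581, chr12:35992907-36004087, plus strand) encodes a disulfide isomerase of the endoplasmic reticulum that MUC2 needs to fold. Its levels were 214, 185 and 189 FPKM in control vehicle, 102, 83.4 and 115 in control hemin, 449, 424 and 429 in KO vehicle and 47.3, 55.6 and 48.5 in KO hemin. The 4 groups did not overlap. The mean was 1.96-fold lower with hemin in control and 8.59-fold lower in colonoids labelled KO. Its ratio to *Muc2* was 1.94 ± 0.493 in control vehicle and 1.71 ± 0.224 in control hemin, against 5.98 ± 0.151 in KO vehicle and 8.02 ± 1.75 in KO hemin.

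*Spdef* (ENSMUSG00000024215, chr17:27714352-27728955, minus strand) had 18.0, 20.03 and 17.6 FPKM in control vehicle and 2.66, 3.34 and 0.817 in control hemin, where replicate 3 was lowest and held 22 fragments. In KO vehicle it had 23.3, 23.8 and 24.7, and in KO hemin 0.211, 0.221 and 0.181, which rests on 7, 12 and 6 fragments. The groups were separate in the order KO vehicle, control vehicle, control hemin, KO hemin. In linear terms the mean was 8.15-fold lower with hemin in control and 117-fold lower in colonoids labelled KO. On the log2(FPKM + 1) scale, which understates a change of a low gene, the differences were −2.67 ± 0.24 and −4.37 ± 0.24. With a pseudocount of 0.1 in place of 1 they were −3.24 and −6.77, and the difference between the genotypes under hemin was −3.16 in place of −1.35.

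**Figure D2:**
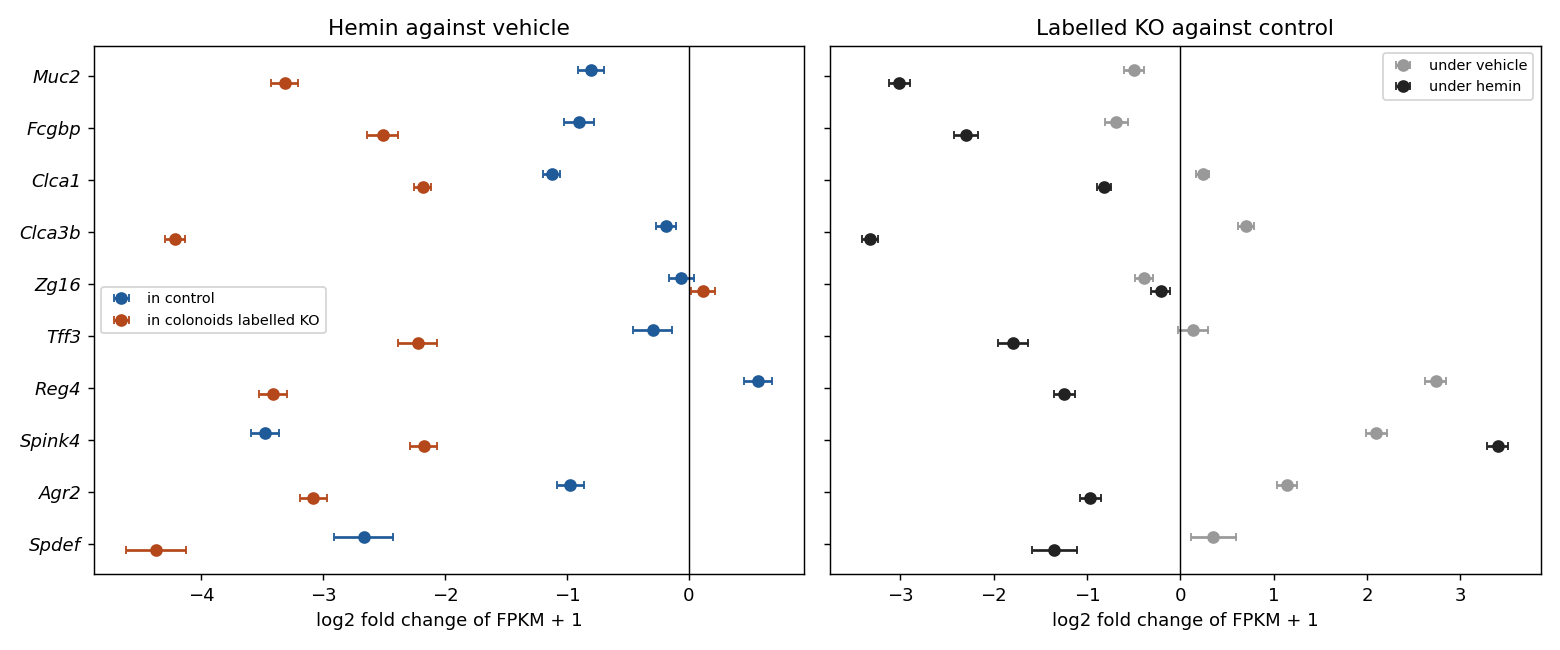
Log2 fold changes of FPKM + 1 (points) with their SE from the fit over 12 libraries (bars), for hemin against vehicle in each genotype (left) and for labelled KO against control under each treatment (right). With hemin, 9 of the 10 genes in colonoids labelled KO lie between −2.18 and −4.37, and *Zg16* lies at 0.12.

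A gene was called where the adjusted p was under 0.05 and the absolute log2 fold change above 1. In colonoids labelled KO, 9 of the 10 genes were called lower with hemin and 0 higher, beside 12.9% of the 12740 tested genes called in either direction, 8.07% called lower and 4.87% called higher. In control, 3 of the 10 (*Clca1*, *Spink4* and *Spdef*) were called lower (6 with TPM, and 5 with TPM without *Gm23935*) and 0 higher, beside 8.11% in either direction, 5.93% lower and 2.17% higher. Under vehicle, 3 of the 10 (*Reg4*, *Spink4* and *Agr2*) were called higher in KO than in control, and 0 lower, beside 6.8% in either direction, 3.53% higher and 3.27% lower. Under hemin, 1 (*Spink4*) was called higher and 6 lower in KO, beside 6.01% in either direction, 3.1% higher and 2.91% lower. For the difference between the 2 hemin responses (the interaction), 8 were called lower and *Spink4* higher, beside 5.13% in either direction, 2.56% lower and 2.57% higher. Since the list was drawn up with these contrasts known, nothing is read from these counts. Over the 10 genes the log2 fold changes had a median of −0.85 with hemin in control, −2.80 with hemin in colonoids labelled KO, 0.30 for KO against control under vehicle and −1.30 under hemin, where the medians over all tested genes lay between −0.01 and 0.04. The 2 hemin comparisons share no libraries, but each comparison between the genotypes shares its libraries with both.

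The libraries of the groups did not overlap for 7 of the 10 genes with hemin in control, a pattern that 52.4% of all tested genes showed. The same held for 9 of 10 with hemin in colonoids labelled KO (74.4% of all tested genes), for 10 of 10 between genotypes under vehicle (57.5%) and for 9 of 10 between genotypes under hemin (40.9%).

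The make-up of the mucus gene sum differed between the groups. *Tff3* made up 50.02% ± 1.32 of the summed FPKM in control vehicle, 58.0% ± 5.63 in control hemin, 39.9% ± 0.318 in KO vehicle and 35.6% ± 2.70 in KO hemin. *Spink4* made up 6.55% ± 0.873, 0.790% ± 0.259, 20.4% ± 0.419 and 18.8% ± 1.88 in the same order. *Zg16* held 11.8% ± 0.437, 16.0% ± 0.587, 6.50% ± 0.181 and 29.5% ± 0.296, so that its share was largest where its own level was near its level elsewhere and the sum was smallest. *Muc2* itself made up 5.41% ± 0.539 in control vehicle and 1.02% ± 0.101 in KO hemin.

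**Figure D3:**
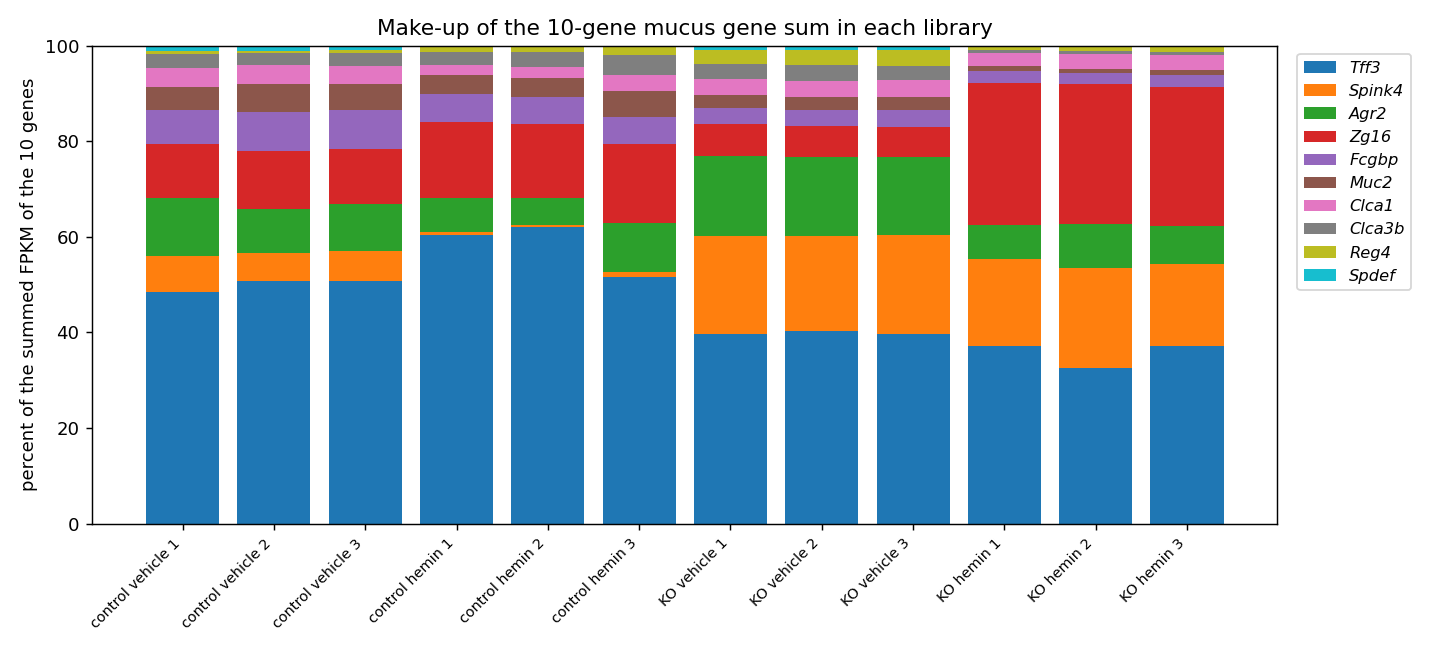
Percent of the summed FPKM of the 10 genes taken by each gene, 1 bar for each of the 12 libraries. The orange *Spink4* segment is a thin line in control hemin (0.790% on average) and about as wide in KO hemin (18.8%) as in KO vehicle (20.4%), and the red *Zg16* segment is widest in KO hemin (29.5%).

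Across the 12 libraries *Muc2* ran closest to *Fcgbp* (Pearson r = 0.992 of log2(FPKM + 1)) and *Tff3* (0.968), and *Spdef* ran closest to *Clca1* (0.978). *Spink4* and *Zg16* stood apart from *Muc2* (r = 0.0136 and 0.337) and ran opposite to each other (−0.574). These correlations, given without a p, rest on 4 groups of 3 libraries, and the libraries of a group share genotype and treatment. Genes of the other goblet cell lists and of the marker lists described below were left out of a ranking by likeness to *Muc2*. Among the tested genes outside all lists, the 5 most like *Muc2* were *Lamb2* (r = 0.984), *Aldh18a1* (0.981), *Cldn15* (0.980), *Pycard* (0.979) and *Camkk1* (0.979). *Cldn15*, a claudin, had 103 ± 2.76 FPKM in control vehicle, 29.9 ± 5.48 in control hemin, 35.4 ± 2.80 in KO vehicle and 1.45 ± 0.135 in KO hemin. *Aldh18a1*, an enzyme of proline synthesis, had 24.4 ± 1.65, 19.7 ± 1.54, 24.2 ± 1.32 and 8.17 ± 0.148 in the same order.

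Of 91 other genes of goblet cells in 5 lists, 72 were tested, and their adjusted p-values, taken over all 12740 genes, are given below. With hemin, 25 of the 72 fell and 0 rose in control (median log2 fold change −0.62), where 5.93% of all tested genes fell and 2.17% rose. In colonoids labelled KO 36 fell and 3 rose (median −1.11), where 8.07% of all tested genes fell and 4.87% rose. In control, 13 were higher at an unadjusted p under 0.05, each by less than the fold threshold, and limma-voom also called 0 higher. Between the genotypes under vehicle 16 were higher and 8 lower in KO (3.53% and 3.27% of all tested genes), and under hemin 8 were higher and 11 lower (3.1% and 2.91%). The 2 hemin responses differed for 22 (5.13% of all tested genes), with the response of colonoids labelled KO lower for 21 of them (2.56%). These lists too were drawn up with earlier results known, so their counts describe the listed genes and are not independent support for the pattern of the 10. The shares of all tested genes given here are also the background for the counts of each list and of the marker lists below.

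In the list of endoplasmic reticulum and granule genes, most of those called with hemin fell. The list holds genes that fold, pack and release the mucin, and also genes of channels, transporters and transcription factors. Of 25 tested, 9 fell with hemin in control, and 15 fell and 1 rose in colonoids labelled KO. *Creb3l1*, a membrane-bound transcription factor of secretory capacity, had 34.6 ± 1.39 FPKM in control vehicle, 0.670 ± 0.431 in control hemin, 183 ± 7.39 in KO vehicle and 1.24 ± 0.212 in KO hemin. It fell with hemin by log2 −4.45 ± 0.16 in control (adjusted p = 7.99e-09, limma) and −6.36 ± 0.16 in colonoids labelled KO (2.16e-10). The potassium channel gene *Kcnn4* fell by −3.65 ± 0.08 in control (adjusted p = 2.65e-10), from 12.9 ± 1.30 to 0.106 ± 0.0370 FPKM, and by −4.06 ± 0.08 in colonoids labelled KO (5.12e-11). The transporter gene *Slc12a8* fell by −2.49 ± 0.08 in control (5.60e-09) and by −3.41 ± 0.08 in colonoids labelled KO (2.16e-10), where the hemin libraries held at most 1 fragment of it. *Best2*, a bicarbonate-conducting channel of colonic goblet cells, was low in control (0.227 ± 0.0263 FPKM under vehicle and 0 fragments in all 3 hemin libraries) and had 14.8 ± 0.991 FPKM in KO vehicle and 1.31 ± 0.228 in KO hemin. The rise was in *Vamp8*, a SNARE of granule release, which rose by 1.05 ± 0.13 in colonoids labelled KO (4.02e-05) and passed the fold threshold neither with TPM (0.73) nor without KO hemin replicate 1 (1.00).

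Of 10 tested transcription factors of secretory and intestinal fate, 2 fell with hemin in control and 5 in colonoids labelled KO. *Atoh1*, required for all secretory cells, had 13.9 ± 1.78 FPKM in control vehicle, 3.86 ± 0.586 in control hemin, 28.1 ± 1.28 in KO vehicle and 3.66 ± 0.712 in KO hemin. It fell with hemin by −1.62 ± 0.13 in control (adjusted p = 2.25e-06) and −2.65 ± 0.13 in colonoids labelled KO (3.25e-08). *Sox9* fell in both (−1.23 ± 0.12, 1.37e-05, and −1.32 ± 0.12, 4.77e-06). *Foxa3* (−1.68 ± 0.14, 1.56e-06), *Gfi1* (−1.43 ± 0.13, 3.35e-06) and *Foxa2* (−1.28 ± 0.12, 5.25e-06) fell in colonoids labelled KO, and were not called in control (−0.61, −0.70 and −0.22). Between the genotypes, *Foxa2*, a forkhead factor, was higher in KO by 3.00 ± 0.12 under vehicle (1.30e-08) and 1.95 ± 0.12 under hemin (4.28e-07), and *Foxa3* was higher under vehicle (1.07 ± 0.14, 0.000113). *Cdx2*, the caudal factor of intestinal identity, was lower in KO by −2.03 ± 0.18 under vehicle (6.11e-06) and −1.27 ± 0.18 under hemin (0.000254).

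Among 10 tested genes of other secreted proteins, 8 fell with hemin in control and 6 in colonoids labelled KO. *Ccl6*, a chemokine, fell by −3.38 ± 0.09 in control (adjusted p = 8.92e-10) and −4.47 ± 0.09 in colonoids labelled KO (5.12e-11), where it went from 23.2 ± 1.87 to 0.0911 ± 0.0236 FPKM. *Ang4*, an antimicrobial ribonuclease of secretory cells, had 73.0 ± 12.2 FPKM in control vehicle, 22.1 ± 5.37 in control hemin, 65.0 ± 2.98 in KO vehicle and 2.89 ± 0.349 in KO hemin. It fell by −1.69 ± 0.15 with hemin in control (6.83e-06) and −4.09 ± 0.15 in colonoids labelled KO (5.31e-09), and was lower in KO than in control under hemin (−2.55 ± 0.15, 3.38e-07). *Sval1* fell with hemin by −2.29 ± 0.16 in control (1.14e-06) and −4.21 ± 0.16 in colonoids labelled KO (6.68e-09), and was higher in KO under vehicle (3.56 ± 0.16, 3.38e-08) and hemin (1.64 ± 0.16, 1.79e-05). *Retnlb*, a bactericidal goblet cell protein, had 4.24 ± 0.867 FPKM in control vehicle and at most 1 fragment in any library labelled KO, and was lower in KO under vehicle (−2.34 ± 0.20, 3.80e-06). *Klk1*, a kallikrein protease, was higher in KO under vehicle (2.31 ± 0.10, 2.07e-08) and hemin (3.04 ± 0.10, 2.23e-09), as was *Pla2g10*, a secreted phospholipase (1.29 ± 0.07, 1.28e-07, and 2.11 ± 0.07, 2.48e-09). *Tff1*, *Itln1*, *Clca2*, *Clca4c-ps*, *Muc5ac*, *Muc5b* and *Muc6*, of which the last 3 are gel-forming mucins, were under 1 FPKM in every library.

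Of 22 tested mucin glycosylation genes, which build the glycans of MUC2, 3 fell with hemin in control, and 7 fell and 2 rose in colonoids labelled KO. Those that rose were the sialyltransferase gene *St3gal4* (1.55 ± 0.10, adjusted p = 2.24e-07) and the galactosyltransferase gene *B4galt1* (1.03 ± 0.09, 3.37e-06, 0.72 with TPM and 0.98 without KO hemin replicate 1). Between the genotypes the sialyltransferase gene *St3gal6* was higher in KO by 3.85 ± 0.08 under vehicle (7.79e-11) and 3.98 ± 0.08 under hemin (8.07e-11). Lower in KO under both treatments were *St3gal1* (−1.98 ± 0.07, 7.56e-09, under vehicle and −1.97 ± 0.07, 6.75e-09, under hemin), *B4galnt2* (−2.07 ± 0.12, 1.54e-07, and −3.45 ± 0.12, 2.55e-09) and *Gcnt3*, which branches mucin core glycans (−1.84 ± 0.07, 1.29e-08, and −2.45 ± 0.07, 1.23e-09). *St6galnac1*, *B3gnt6* and *Galnt2* were under 1 FPKM in every library.

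Transmembrane mucins, which are anchored in the cell surface and do not form the gel, differed among themselves. Of 5 tested, 3 fell with hemin in each genotype. *Muc3a* was lower in KO than in control under hemin (−2.70 ± 0.14, adjusted p = 8.86e-08), with 10.3 ± 1.80 FPKM in control hemin and 0.746 ± 0.287 in KO hemin. The separate and far more abundant entry *Muc3* had 303 ± 21.5 FPKM in control vehicle and 422 ± 32.2 in control hemin. In KO vehicle it had 369 ± 5.00, and in KO hemin 460 ± 62.5. Whether reads were shared between *Muc3* and *Muc3a* was not tested. The abundant *Muc13* had 255 ± 5.67 FPKM in control vehicle, 373 ± 19.0 in control hemin, 308 ± 1.62 in KO vehicle and 522 ± 29.3 in KO hemin, and was not called in either (0.55 ± 0.06 and 0.76 ± 0.06).

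**Figure D4:**
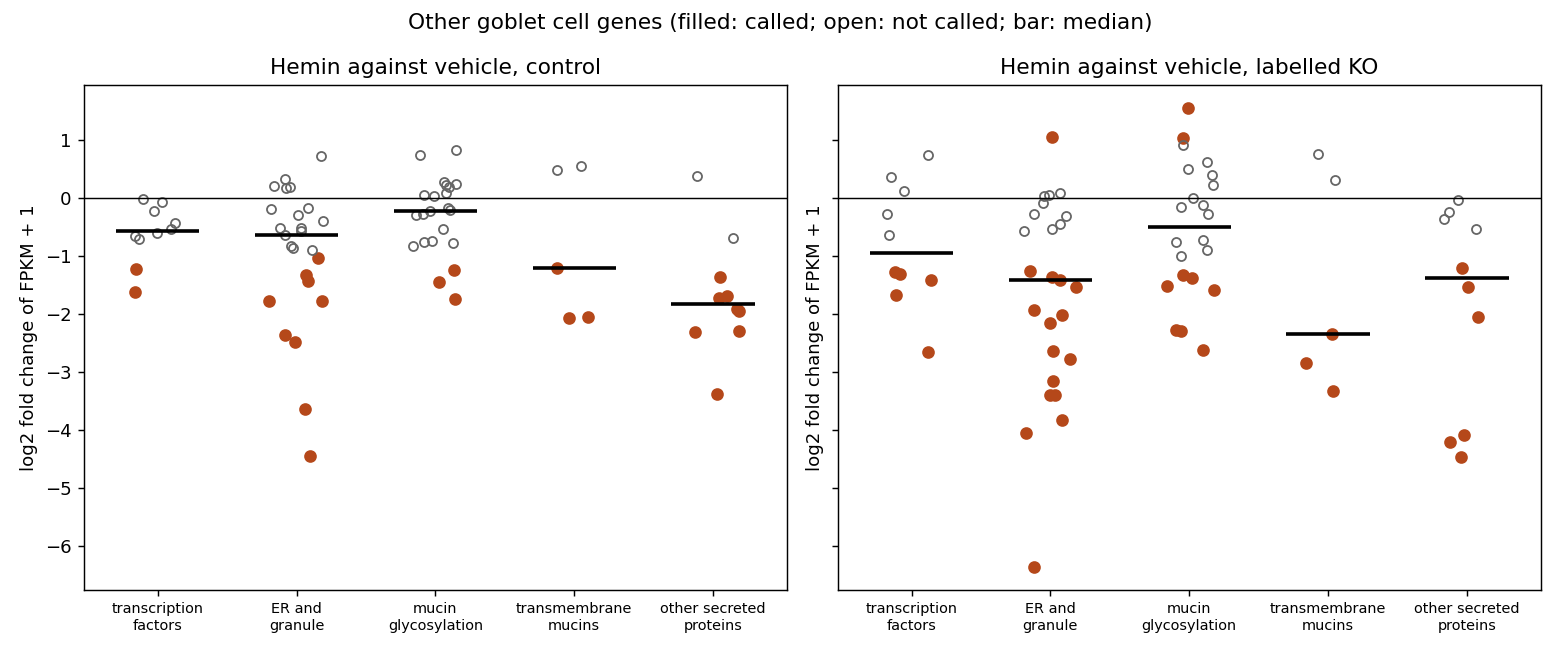
Log2 fold change of FPKM + 1 with hemin for the 72 tested genes of the 5 other goblet cell lists, in control (left) and in colonoids labelled KO (right), 1 point per gene, with the median of each list as a bar. Filled points were called, 25 lower in control, 36 lower and 3 higher in colonoids labelled KO, and the granule list reaches −6.36 (*Creb3l1*).

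Markers of other cells were read beside these results. The 7 epithelial markers summed to between 8229 and 9148 FPKM in control vehicle and 8081 and 10126 in control hemin. In KO vehicle the sum lay between 5859 and 5912, and in KO hemin between 7633 and 8899. Of these markers 1, *Vil1*, was called, higher with hemin in colonoids labelled KO (1.28 ± 0.09, adjusted p = 6.79e-07). With hemin in control it was higher by 0.83 ± 0.09, under the fold threshold, and its interaction was not called (0.45 ± 0.13). *Vil1* is the gene whose promoter drives the Cre. All 8 markers of non-epithelial cells and all 6 of tuft cells were under 1 FPKM in every library. The enteroendocrine list, 8 genes of the hormone-making secretory cells, summed to between 39.3 and 43.8 FPKM in control vehicle, 37.4 and 47.2 in control hemin, 562 and 588 in KO vehicle and 416 and 509 in KO hemin. Of 7 enteroendocrine genes tested, 5 were higher in KO under vehicle, and 4 higher and 1 lower under hemin, whereas 2 fell with hemin in colonoids labelled KO and 1 rose in control. Most of that sum in the libraries labelled KO was *Pyy*, with 403 ± 12.3 FPKM in KO vehicle and 340.3 ± 42.7 in KO hemin against 7.17 ± 0.694 in control vehicle, while *Neurod1* had 2.80 ± 0.178 and *Tph1* 1.44 ± 0.0643 in KO vehicle. The part of enteroendocrine cells in the higher *Reg4*, *Spink4* and *Agr2* of KO vehicle was not tested. The stem and progenitor list of 7 genes summed to between 91.0 and 102 FPKM in control vehicle, 31.1 and 38.7 in control hemin, 133 and 137 in KO vehicle and 46.2 and 56.0 in KO hemin. With hemin, 3 of 6 tested genes were lower in control and 5 of 6 in colonoids labelled KO. Between the genotypes, *Ascl2* (1.69 ± 0.19) and *Smoc2* (1.18 ± 0.08) were called higher in KO under vehicle, and *Ascl2* (1.12 ± 0.19) under hemin. The part of this list in the mucus gene levels was not tested. *Olfm4* was under 1 FPKM throughout. The 8 colonocyte markers summed to between 721 and 1170 FPKM over all libraries, but single ones differed widely between the genotypes, with 4 higher and 2 lower in KO under vehicle and 3 higher and 2 lower under hemin. With hemin, 2 of the 8 fell in control. In colonoids labelled KO 4 fell, namely *Car4* (−3.43 ± 0.19, adjusted p = 7.68e-08), *Guca2b* (−2.55 ± 0.17, 3.58e-07), *Guca2a* (−1.95 ± 0.09, 1.97e-08) and *Slc37a2* (−1.72 ± 0.09, 9.15e-08), and *Krt20* rose (1.41 ± 0.10, 3.83e-07). Their part in the mucus gene levels was not tested. Of the Paneth list, *Defa24*, *Defa17* and *Defa30* were under 1 FPKM everywhere, and the list summed to at most 12.3 FPKM. Of the 2 Paneth genes tested, *Mmp7* was lower in KO under vehicle (−2.88) and hemin (−2.00) and fell with hemin in control (−1.38), while *Lyz1* was higher in KO under vehicle (1.27) and fell with hemin in colonoids labelled KO (−1.16). Their part in the mucus gene levels was not tested.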

How the data were processed

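Poly(A) RNA of 12 mouse colonoid libraries was sequenced. The authors deposited FPKM per gene, made with fastp, HISAT2 2.0.5 and featureCounts 1.5.0-p3 on mm10, per the submitters' processing notes, and whether the libraries were stranded is not given in the sources used here. Coordinates are those of the deposited table. Whole fragments were recovered from FPKM and gene length, with 100% of values whole within 0.001 fragment, and gave 11648801 to 25101868 fragments per library. No column of values was left without a sample (0).

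Genes with at least 1 FPKM in at least 3 of 12 libraries (12740 of 54532) were fitted with limma 3.58.1 (R 4.3.3) on log2(FPKM + 1), with 1 mean per group, 8 residual degrees of freedom, an intensity trend and Benjamini-Hochberg adjustment over all tested genes. A gene was called where the adjusted p was under 0.05 and the log2 difference above 1 in size. P-values measure the spread between these libraries. The script was tested on simulated data. Alternatives were a pseudocount of 0.1, no filter, TPM computed from FPKM (also without *Gm23935*), limma-voom on the recovered fragments, a replicate block, and each library left out.

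The 10 genes and all lists were chosen with earlier results of these data known. Named other genes were, per comparison, the 4 called genes of the goblet cell lists with the largest fold change in each direction, every called transcription factor, and the 5 genes outside all lists most correlated with *Muc2*. *Muc3*, *Muc13*, *Vil1*, the other marker genes given with values and the genes named as under 1 FPKM were added after their values were seen.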

Additional observations from a re-analysis of the deposited data

Results flagged for a closer look

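The response to hemin of 22 of 72 tested goblet cell genes outside the 10 (beside 5.13% of all tested genes) differed between the genotypes by limma's interaction term (adjusted p under 0.05 and an absolute log2 difference above 1, colonoids labelled KO minus control). Among endoplasmic reticulum and granule genes, the difference was −2.48 for *Best2* (0.18 with limma-voom, adjusted p = 0.888), −1.91 for *Creb3l1* (−1.40 with a pseudocount of 0.1, adjusted p = 0.0877), −1.61 for *Pdia5*, −1.61 for *Selenom*, −1.50 for *Capn9*, −1.47 for *Ern2*, −1.37 for *Creb3l4*, −1.37 for *Slc12a2*, −1.33 for *Bcas1* and −1.01 for *Rab27a*. Among glycosylation genes it was −1.80 for *Galnt5*, −1.39 for *B4galnt2*, −1.27 for *Fut2* and −1.06 for *Chst4*. Among other secreted proteins it was −2.40 for *Ang4*, −1.91 for *Sval1* and −1.09 for *Ccl6*, and 1.69 for *Retnlb*, whose level in the libraries labelled KO was at most 1 fragment before hemin (2.45 with limma-voom, adjusted p = 0.165). Among transcription factors it was −1.08 for *Foxa3*, −1.05 for *Foxa2* and −1.03 for *Atoh1*. Each of these went just under the fold threshold with single libraries left out. For the transmembrane mucin gene *Muc3a* the difference was −2.12. The value of *Best2* rests on 0 fragments in the 3 control hemin libraries. The hemin levels of *Ccl6* rest on 3 to 7 fragments in control and 2 to 5 in the libraries labelled KO.

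*Reg4* was marked because every control hemin library lay above the control vehicle mean and every KO hemin library below the KO vehicle mean. Its 2 hemin responses differed by −3.98 ± 0.16 on the log2 scale, which passed the thresholds for a call in the fit over all genes. *Reg4* was chosen with this difference known, so the call is no independent support. Groups of 3 libraries are too small for a check of single libraries that stand apart.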

How the results depend on the processing

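The counts of the 10 genes called kept within 1.5 times in all alternatives run, except that with hemin in control 6 rather than 3 were called lower with TPM and 5 with TPM without *Gm23935*. Of 900 fold changes of these genes under alternatives (50 values times 18 settings), 812 moved by less than the spread between replicates and 88 by more, and 4 changed sign, all of *Zg16*. TPM also moved the median of all tested genes, to −0.18 with hemin in control, −0.31 with hemin in colonoids labelled KO, 0.15 for KO under vehicle and −0.12 for the interaction, against medians near 0 with FPKM.

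Over all tested genes, hemin in control called 277 higher and 756 lower, against 496 and 1264 with a pseudocount of 0.1, 524 and 1306 with limma-voom, 288 and 1576 with TPM, and 1454 lower with TPM without *Gm23935*. Hemin in colonoids labelled KO called 620 higher and 1028 lower, against 936 and 1669 with limma-voom, 430 and 2671 with TPM, 1563 lower with a pseudocount of 0.1 and 2306 lower with TPM without *Gm23935*. KO against control under vehicle called 450 higher and 416 lower, against 931 and 560 with TPM, 854 higher with TPM without *Gm23935* and 629 lower with limma-voom. Under hemin it called 395 higher and 371 lower, against 690 and 652 with a pseudocount of 0.1, 599 and 585 with TPM, 715 and 684 with limma-voom, and 671 lower with TPM without *Gm23935*. The interaction called 328 higher and 326 lower, against 311 and 673 with TPM, and 533, 763 and 524 lower with a pseudocount of 0.1, TPM without *Gm23935* and limma-voom.

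Of the other goblet cell genes, 11 were lower in KO under hemin, against 17 with a pseudocount of 0.1, 17 with TPM, 18 with TPM without *Gm23935* and 18 with limma-voom. With hemin in colonoids labelled KO 3 rose, against 1 with either TPM, and 1 to 3 with a library left out (1 without KO hemin replicate 1). For the interaction 1 was higher, against 0 with limma-voom and 1 to 2 with a library left out, and 21 were lower, against 17 to 22 with a library left out, 23 with a pseudocount of 0.1, 26 with TPM, 27 with TPM without *Gm23935* and 25 with limma-voom. *Best2* reversed in the interaction, from −2.48 to 0.18 with limma-voom (adjusted p = 0.888). There *Creb3l1* lost its call with a pseudocount of 0.1 (−1.40, adjusted p = 0.0877), *Retnlb* with limma-voom (2.45 in place of 1.69, adjusted p = 0.165), and *Atoh1*, *Foxa2* and *Foxa3* went just under the fold threshold with single libraries left out (lowest 0.912 in size, *Atoh1* without KO hemin replicate 2). The cause was not tested.

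The replicate block called 393 genes higher and 368 lower in KO under hemin and changed no count by over 1.5 times. Same-numbered libraries did not deviate together (mean r = −0.0425 over 18 pairs, 0.0232 over 36 other pairs). With 3 libraries per group this cannot show whether the numbers pair the samples, since nothing states what they stand for. Depth limits *Spdef* in KO hemin, at 6 to 12 fragments.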
